A study of Mus musculus with 9 samples.

Results

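The crypt base stem cell and progenitor markers are 10 genes, Olfm4, Lgr5, Ascl2, Smoc2, Cdca7, Prom1, Sox9, Lrig1, Rgmb and Hopx, read by Ensembl identifier from a table of 31685 mouse genes. The table came from jejunal tissue of 9 adult male wild-type C57BL/6J mice, taken on day 3, with 3 mice in each group. The control group was untreated, the TAI group received a single dose of 12 Gy of X-rays to the abdomen (total abdominal irradiation) and PBS, and the TAI/IVIg group received the same 12 Gy and 500 mg/kg of intravenous immunoglobulin, a preparation of human IgG. No group received IVIg without irradiation. The labels put all mice in a single batch and call the samples epithelial tissue, while the study's methods describe frozen jejunal tissue. Levels are given as FPKM, reads scaled to gene length and library size, and 8 of the 10 genes had an FPKM of 1 or more in 3 or more mice, the minimum for the test across genes. Lgr5 and Ascl2 did not, and they are described by their values in every mouse.

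The intestinal epithelium is renewed from crypts, whose base holds crypt base columnar stem cells wedged between Paneth cells. Wnt signals from Paneth cells and from the surrounding stroma act through Frizzled receptors and β-catenin, R-spondins amplify them through LGR receptors, and daughters that leave the crypt base divide in the transit-amplifying zone before they differentiate. Dividing crypt cells are among the most radiosensitive cells of the gut. Several of the 10 genes are not restricted to the crypt base columnar cell: Sox9 is also known from Paneth, tuft and enteroendocrine cells, Hopx and Lrig1 from slowly cycling crypt cells, Cdca7 from dividing cells at large, and Smoc2 and Lrig1 from cells outside the epithelium.

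The 250 bases before the RefSeq start are shown for Olfm4, Cdca7, Hopx and Ascl2, because these genes varied together between mice. The gene spans given below are those of GENCODE. The Olfm4 window lies inside the GENCODE span of the gene, and the Cdca7 window runs into that of Cdca7. RefSeq windows of 300 bases (GRCm38.p6, 250 before the start and 50 after it) were matched by symbol for 7 of the 10 genes, 11 windows in all. Capitals mark the letters CTTTG, the core bound by TCF/LEF factors, and CACCTG, an E-box, on either strand (CAAAG and CAGGTG where they lie on the opposite strand).
Olfm4, chr14:80000052-80000301, plus strand: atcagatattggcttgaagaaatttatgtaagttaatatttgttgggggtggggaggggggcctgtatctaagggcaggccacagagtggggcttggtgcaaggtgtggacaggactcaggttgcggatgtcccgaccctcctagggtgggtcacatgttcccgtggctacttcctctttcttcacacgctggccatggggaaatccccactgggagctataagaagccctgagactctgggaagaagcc
Cdca7, chr2:72475969-72476218, plus strand: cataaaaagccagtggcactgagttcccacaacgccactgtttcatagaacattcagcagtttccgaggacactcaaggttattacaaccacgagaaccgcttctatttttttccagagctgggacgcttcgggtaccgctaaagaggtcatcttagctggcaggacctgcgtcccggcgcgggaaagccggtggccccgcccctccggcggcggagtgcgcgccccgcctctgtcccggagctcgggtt
Hopx, upstream start, chr5:77115124-77115373, minus strand: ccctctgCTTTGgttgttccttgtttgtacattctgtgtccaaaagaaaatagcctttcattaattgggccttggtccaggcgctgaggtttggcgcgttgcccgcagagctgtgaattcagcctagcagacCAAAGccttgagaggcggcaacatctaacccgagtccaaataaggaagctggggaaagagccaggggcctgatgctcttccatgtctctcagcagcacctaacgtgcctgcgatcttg
Ascl2, chr7:142969265-142969514, minus strand: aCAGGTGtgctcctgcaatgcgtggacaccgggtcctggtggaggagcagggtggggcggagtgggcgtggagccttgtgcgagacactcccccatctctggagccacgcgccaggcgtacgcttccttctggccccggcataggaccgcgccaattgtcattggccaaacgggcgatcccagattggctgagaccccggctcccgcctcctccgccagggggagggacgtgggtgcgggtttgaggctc

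The windows differed in these letters. CTTTG was present in 4 of the 11 windows, against 53.9% of 32851 promoter windows of the same length, and CACCTG in 3 of 11, against 20.2%. The E-box CAGCTG was present in 1 of 11, in the part of the Hopx window after the start, against 16.3%. The longer TCF/LEF letters CTTTGAT, which include the core, were in 0 of 11 windows and in 3.7% of all windows. A match describes letters in a window and not a bound site.

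The recovered depth was similar in all groups, from 17315036 to 17674682 reads in the control mice, 16285731 to 18246185 in the TAI mice and 16772462 to 17985346 in the TAI/IVIg mice. The labelled tissue was checked against marker genes. The summed FPKM of 5 pan-epithelial markers ran from 3031 to 4101 over the 9 mice, and that of 8 enterocyte markers from 11895 to 47854. Smooth muscle markers, 6 genes, were also present, from 482 to 621 in the control mice, 536 to 765 in the TAI mice and 113 to 554 in the TAI/IVIg mice, so the samples were not epithelium alone. The table lists no gene that is at 0 in every mouse, so a row for a marker does not by itself show its cell type. Il25, a tuft cell marker, had at most 3 reads in a mouse. In such bulk samples, fewer cells of a type and less RNA per cell cannot be told apart. The median log2 fold change over the 13056 genes tested was -0.23 in TAI against control, -0.39 in TAI/IVIg against control and -0.13 between TAI/IVIg and TAI, and with the library medians set equal the calls shifted from 3411 lower and 1150 higher to 1823 and 2159 in TAI against control, and from 4880 and 1183 to 1894 and 2880 in TAI/IVIg against control. Changes of the marker genes are therefore read beside these medians.

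The order of the 10 genes by mean FPKM differed between the groups. In the control mice Olfm4 (27.5) and Hopx (19.6) were highest and overlapped between mice. Cdca7 (7.84), Rgmb (7.62), Lrig1 (6.83) and Smoc2 (5.68) followed, each overlapping its neighbour. Prom1 (4.04) and Sox9 (1.94) stood apart from their neighbours, and Lgr5 (0.645) and Ascl2 (0.597) were lowest and overlapped. In the TAI mice Hopx (10.3) and Lrig1 (9.30) were highest, Olfm4 had rank 8 of 10 at 1.62, and Sox9 had rank 6 at 5.32. In the TAI/IVIg mice Hopx (8.91) was highest with no overlap with Rgmb (4.63), the next gene, and Olfm4 (0.449) lay below Lgr5 (0.543), with overlap between mice. Ascl2 was the lowest of the 10 genes in each group.

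**Figure D1:**
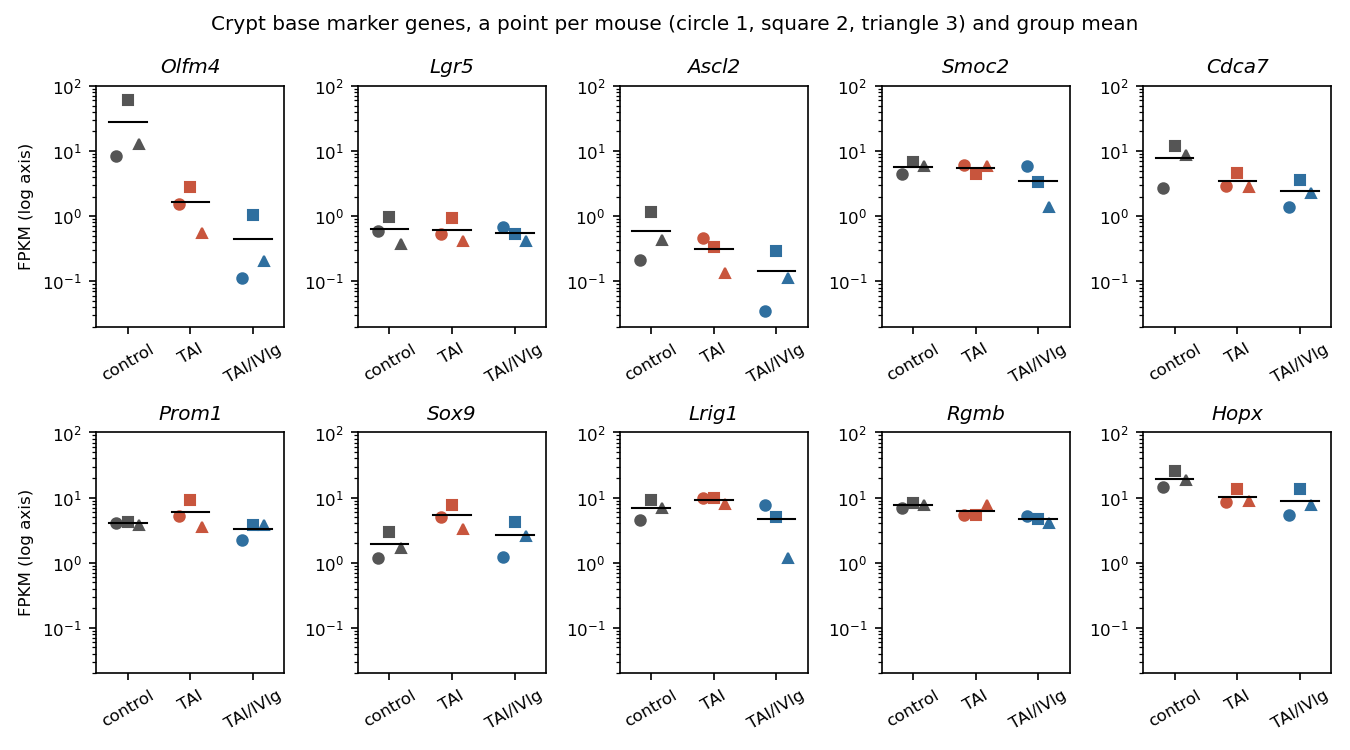
FPKM of the 10 crypt base marker genes on a log axis, with a point per mouse (circle, square and triangle for mice 1, 2 and 3) and a line at the mean of each group. Olfm4 ran from 8.39 to 61.4 in the control mice, 0.555 to 2.80 in the TAI mice and 0.113 to 1.03 in the TAI/IVIg mice, while Lgr5 stayed between 0.371 and 0.981 in all 9 mice.

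Among the secreted products, Olfm4 (ENSMUSG00000022026, chr14:79984081-80023139, plus strand) showed the largest difference from control of the 8 genes tested, in TAI and in TAI/IVIg mice. It encodes olfactomedin 4, a glycoprotein abundant in crypt base columnar cells. Its level was 8.39, 61.4 and 12.8 FPKM in the control mice, 1.52, 2.80 and 0.555 in the TAI mice, and 0.113, 1.03 and 0.201 in the TAI/IVIg mice. All irradiated mice lay below all control mice, and TAI/IVIg mouse 2 lay among the TAI mice. The mean was 27.5 ± 29.4 FPKM (SD, n = 3) in control and 1.62 ± 1.13 in TAI, a 16.9-fold difference, and the fitted change on the log2(FPKM + 1) scale was -3.03 (standard error 0.65, limma adjusted p = 0.00844). Against control, the TAI/IVIg mean of 0.449 ± 0.508 FPKM (SD, n = 3) gave -3.85 (standard error 0.65, limma adjusted p = 0.00214). The TAI/IVIg value rests on 6, 52 and 10 reads. TAI/IVIg against TAI gave -0.82 (95% interval -2.28 to 0.64, limma adjusted p = 0.573), which did not pass the test. At these read numbers the pseudocount weighs on the value, which was -1.80 with a pseudocount of 0.1 (limma adjusted p = 0.383). It was -2.16 with voom on genes with at least 10 reads in at least 3 mice (95% interval -5.54 to 1.22, adjusted p = 0.468). This voom setting was chosen after seeing the data. Voom gave -3.83 for TAI and -5.98 for TAI/IVIg, each against control (adjusted p = 0.0201 and 0.00622).

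Control mouse 2 carried a large part of the Olfm4 difference. Without it the fitted change was -2.21 for TAI and -3.03 for TAI/IVIg, each against control, and both stayed past the threshold. In that mouse the summed FPKM of 12 Paneth cell genes was 6703, against 1276 and 1232 in the other control mice. The Paneth sum was 2414, 6526 and 3315 in the TAI mice, where Olfm4 had fallen, and 428, 1791 and 180 in the TAI/IVIg mice. The part of crypt base sampling in the Olfm4 values was not tested.

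Smoc2 (ENSMUSG00000023886, chr17:14279506-14404790, plus strand), a secreted calcium-binding matricellular protein, did not pass the test in any comparison. It was at 4.44, 6.71 and 5.88 FPKM in the control mice, 6.13, 4.51 and 5.88 in the TAI mice, and 5.83, 3.33 and 1.41 in the TAI/IVIg mice. The groups overlapped, and TAI/IVIg mice 2 and 3 were the lowest of the 9. The log2 fold change was -0.03 (95% interval -0.79 to 0.72, limma adjusted p = 0.948) in TAI against control and became 0.26 with the library medians set equal. It was -0.64 in TAI/IVIg against TAI (95% interval -1.40 to 0.11, limma adjusted p = 0.428), and -0.25 once TAI/IVIg mouse 3 was left out. When TAI/IVIg mouse 1 was left out instead, the difference from control passed the threshold, at -1.03 (limma adjusted p = 0.0205).

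Of the membrane proteins, Lgr5 (ENSMUSG00000020140, chr10:115450311-115587780, minus strand), the R-spondin receptor that defines crypt base columnar cells, was low and overlapped between all groups. It was at 0.583, 0.981 and 0.371 FPKM in the control mice, 0.523, 0.921 and 0.422 in the TAI mice, and 0.683, 0.528 and 0.418 in the TAI/IVIg mice. These levels rest on 66 to 178 reads a mouse. The difference on the log2(FPKM + 1) scale was -0.02 in TAI against control, -0.08 in TAI/IVIg against control and -0.06 in TAI/IVIg against TAI (two-sided exact permutation p = 0.9, 0.7 and 0.8, where the smallest possible with 3 mice against 3 is 0.1). In the limma fit without a filter the 95% interval was -0.42 to 0.39 for TAI against control and -0.47 to 0.34 for TAI/IVIg against TAI. With voom on the reads, a scale that does not compress low values, it was -0.95 to 0.88 and -1.06 to 0.80, so a change of either sign within these bounds was not detectable.

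The levels of Olfm4 and Lgr5 were also set against each other within each library. The ratio of Olfm4 to Lgr5 FPKM, which does not depend on the scaling of the libraries, was 14.4, 62.5 and 34.5 in the control mice, 2.90, 3.04 and 1.32 in the TAI mice, and 0.165, 1.96 and 0.481 in the TAI/IVIg mice. All control mice lay above all irradiated mice. The difference in its mean log2 was -3.80 in TAI against control and -5.87 in TAI/IVIg against control (two-sided exact permutation p = 0.1 for each, the smallest possible), and -2.07 in TAI/IVIg against TAI, where the mice overlapped (exact permutation p = 0.2). This ratio was chosen after its values were seen, so its permutation p-values are only a description.

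Lrig1 (ENSMUSG00000030029, chr6:94604529-94700158, minus strand) encodes a transmembrane protein that restrains ErbB receptors. It was at 4.50, 9.13 and 6.87 FPKM in the control mice, 9.91, 9.91 and 8.10 in the TAI mice, and 7.71, 4.97 and 1.19 in the TAI/IVIg mice. The TAI/IVIg mice all lay below the TAI mice, and TAI/IVIg mouse 3 was far below the other 8. TAI/IVIg against TAI gave a log2 fold change of -1.08 (95% interval -2.10 to -0.07, limma unadjusted p = 0.039, adjusted p = 0.378), which did not pass the test, and -0.51 without TAI/IVIg mouse 3. TAI against control gave 0.43 (95% interval -0.58 to 1.45, limma adjusted p = 0.472).

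Markers of smooth muscle moved with Smoc2 and Lrig1. Actg2, the enteric smooth muscle actin, was at 120, 151 and 158 FPKM in the control mice, 158, 129 and 176 in the TAI mice, and 133, 77.4 and 24.7 in the TAI/IVIg mice. In TAI/IVIg mouse 3 the summed smooth muscle markers were at 113 FPKM, against 302 to 765 in the other mice, and the 6 fibroblast and stroma markers at 21.1, against 42.0 to 94.2. The ratio of Smoc2 to Actg2 ran from 0.0334 to 0.0445 in 8 mice and was 0.0569 in TAI/IVIg mouse 3, and the ratio of Lrig1 to Actg2 ran from 0.0376 to 0.0767 in all 9 mice. Actg2 was chosen because its pattern was the most like that of Smoc2, which in itself keeps their ratio steady, so the ratios are a description. The part of non-epithelial tissue in the levels of Smoc2 and Lrig1 was not tested.

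**Figure D2:**
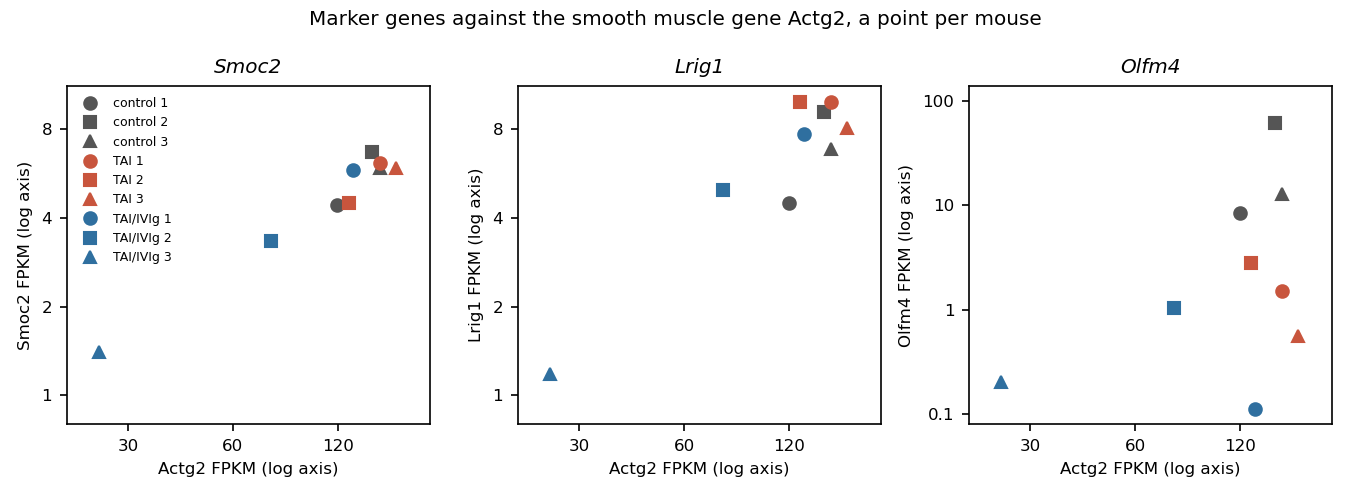
FPKM of Smoc2, Lrig1 and Olfm4 against that of the smooth muscle gene Actg2, both on log axes, with a point per mouse. For Smoc2 and Lrig1 the lowest point at the left is TAI/IVIg mouse 3 (Actg2 at 24.7), whereas Olfm4 spanned 0.113 to 61.4 among the mice with Actg2 above 100.

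Rgmb (ENSMUSG00000048027, chr17:15803188-15831039, minus strand), a GPI-anchored co-receptor of the BMP pathway, had the smallest standard error of the 8 genes tested. It was at 6.87, 8.37 and 7.62 FPKM in the control mice, 5.41, 5.33 and 7.63 in the TAI mice, and 5.12, 4.74 and 4.02 in the TAI/IVIg mice. The TAI/IVIg mice lay below all other mice, and TAI mouse 3 lay at the control level. Rgmb fell in TAI/IVIg against control by 0.62 on the log2 scale (standard error 0.16, limma adjusted p = 0.0131), a 1.65-fold difference in the means. This call was lost with the library medians set equal (-0.13, limma adjusted p = 0.583). TAI against control gave -0.29 (limma adjusted p = 0.190) and TAI/IVIg against TAI gave -0.33 (95% interval -0.69 to 0.03, limma adjusted p = 0.409).

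Prom1 (ENSMUSG00000029086, chr5:43993620-44102032, minus strand), the pentaspan membrane protein known as CD133, did not pass the test in any comparison. It was at 4.13, 4.16 and 3.82 FPKM in the control mice, 5.14, 9.14 and 3.56 in the TAI mice, and 2.22, 3.76 and 3.74 in the TAI/IVIg mice. The TAI mice were the most spread, and every TAI/IVIg mouse lay below the lowest control mouse, as held for 44.3% of all genes tested. The fit of TAI/IVIg against control gave -0.27 (95% interval -0.90 to 0.36, limma adjusted p = 0.439). Its sign changed under some other scalings, given in the closing section. TAI/IVIg against TAI gave -0.65 (95% interval -1.28 to -0.02, limma unadjusted p = 0.0434, adjusted p = 0.382), and TAI against control gave 0.38 (95% interval -0.25 to 1.01, limma adjusted p = 0.305).

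Of the nuclear proteins, Ascl2 (ENSMUSG00000009248, chr7:142966829-142969264, minus strand), a basic helix-loop-helix factor and Wnt target that sets stem cell identity, was the lowest of the 10 genes. It was at 0.213, 1.15 and 0.427 FPKM in the control mice, 0.467, 0.341 and 0.135 in the TAI mice, and 0.0343, 0.290 and 0.110 in the TAI/IVIg mice. These values rest on 6, 33 and 12 reads in the control mice, 13, 9 and 4 in the TAI mice, and 1, 8 and 3 in the TAI/IVIg mice. The groups overlapped, and the difference on the log2(FPKM + 1) scale was -0.25 in TAI against control, -0.44 in TAI/IVIg against control and -0.20 in TAI/IVIg against TAI (two-sided exact permutation p = 0.5, 0.2 and 0.2). Voom on the reads gave -0.74 (95% interval -2.40 to 0.92), -1.97 (-3.84 to -0.11) and -1.23 (-3.18 to 0.71) in the same order, with adjusted p = 0.481, 0.0831 and 0.470. The TAI/IVIg mean was 4.12-fold below the control mean, at 12 reads over the 3 TAI/IVIg mice.

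Sox9 (ENSMUSG00000000567, chr11:112782224-112787760, plus strand), a transcription factor needed for Paneth cell formation, was the only one of the 8 genes tested that was called higher in TAI against control. It was at 1.20, 2.91 and 1.70 FPKM in the control mice, 4.98, 7.72 and 3.25 in the TAI mice, and 1.22, 4.14 and 2.54 in the TAI/IVIg mice. All TAI mice lay above all control mice, and the TAI/IVIg mice overlapped both groups. It rose by 1.08 in TAI against control on the log2 scale (standard error 0.36, limma adjusted p = 0.0463), and the adjusted p lay between 0.113 and 0.142 when control mouse 1, control mouse 3, TAI mouse 1 or TAI mouse 2 was left out, with the direction kept. With a pseudocount of 0.1 in place of 1 it was 1.41 (limma adjusted p = 0.0532). TAI/IVIg against TAI gave -0.82 (95% interval -1.64 to 0.01, limma adjusted p = 0.389), and TAI/IVIg against control gave 0.27 (limma adjusted p = 0.562). Paneth cell genes, given above by their sums, were higher in TAI than in control by a median of 0.69 on the log2 scale, with 0 of 12 past the threshold. Their part in the Sox9 values was not tested.

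**Figure D3:**
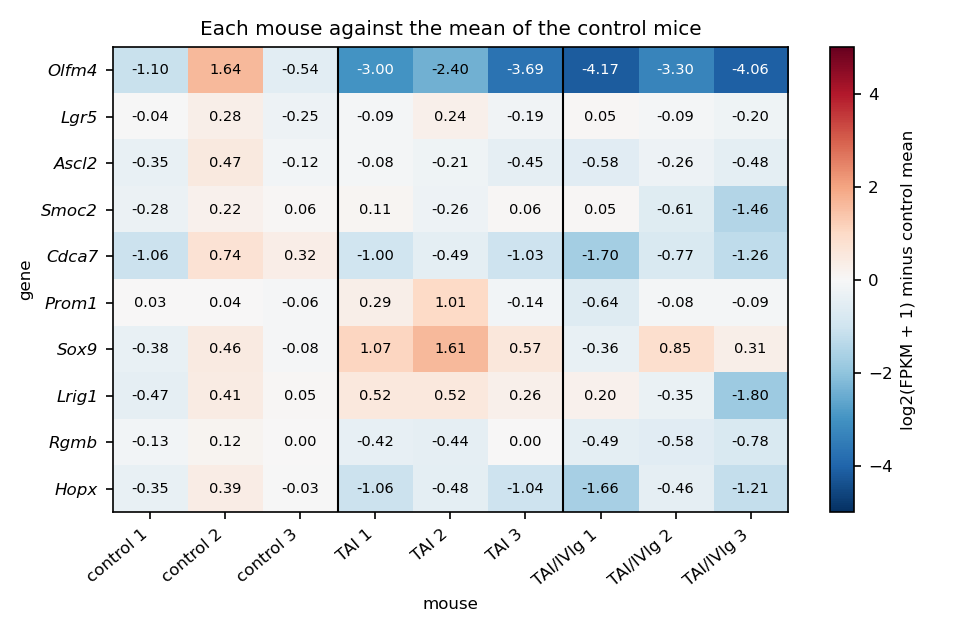
Difference of log2(FPKM + 1) from the mean of the control mice, for each of the 10 genes (rows) in each of the 9 mice (columns), in red where higher and blue where lower. Olfm4 lay between -2.40 and -4.17 in the 6 irradiated mice, and Sox9 was above the control mean in all 3 TAI mice.

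Hopx (ENSMUSG00000059325, chr5:77086988-77115121, minus strand), an atypical homeodomain protein that does not bind DNA, was at 14.7, 25.3 and 18.7 FPKM in the control mice, 8.66, 13.4 and 8.79 in the TAI mice, and 5.36, 13.7 and 7.71 in the TAI/IVIg mice. Every irradiated mouse lay below every control mouse. TAI against control gave -0.86 (standard error 0.32, limma adjusted p = 0.0642), which missed the threshold. It passed with the replicate number as a block (limma adjusted p = 0.00599) and with the 6 mice compared alone (limma adjusted p = 0.0308). It was -0.57 with the medians set equal (limma adjusted p = 0.138) and -0.66 without control mouse 2 (limma adjusted p = 0.185). Hopx fell in TAI/IVIg against control by 1.11 (standard error 0.32, limma adjusted p = 0.0203), a call lost with the medians set equal (-0.62, limma adjusted p = 0.106) and without control mouse 2 or 3 or TAI/IVIg mouse 1 or 3 (limma adjusted p from 0.0525 to 0.0693). TAI/IVIg against TAI gave -0.25 (95% interval -0.97 to 0.47, limma adjusted p = 0.731).

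Cdca7 (ENSMUSG00000055612, chr2:72476159-72486893, plus strand), a chromatin protein of dividing cells that is needed for DNA methylation, was at 2.75, 12.0 and 8.75 FPKM in the control mice, 2.90, 4.55 and 2.82 in the TAI mice, and 1.41, 3.57 and 2.27 in the TAI/IVIg mice. Control mouse 1 lay just below the TAI mice, and the other control mice lay far above them. TAI against control gave -0.84 (standard error 0.43, limma adjusted p = 0.160), -1.37 without control mouse 1 (limma adjusted p = 0.011), and passed with the replicate block (limma adjusted p = 0.0496). The change shrank to -0.47 without control mouse 2 (limma adjusted p = 0.424) and to -0.55 with the medians set equal (limma adjusted p = 0.280). Cdca7 fell in TAI/IVIg against control by 1.24 (standard error 0.43, limma adjusted p = 0.0423), and this call was lost with the medians set equal (-0.75, limma adjusted p = 0.146), with the 6 mice compared alone (limma adjusted p = 0.0773), with voom (adjusted p = 0.0552) and without control mouse 2 or 3 or TAI/IVIg mouse 1 or 3 (limma adjusted p from 0.0945 to 0.132). The summed FPKM of 27 cell cycle and DNA replication genes was likewise lowest in control mouse 1 among the controls, at 115 against 300 and 282, and was 42.5 to 58.3 in the TAI mice and 27.4 to 49.7 in the TAI/IVIg mice. The part of cell division in the Cdca7 values was not tested.

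By comparison, 1 of the 8 genes was lower in TAI than in control (Olfm4) and 1 was higher (Sox9). Over all genes tested 26.1% were called lower and 8.81% higher. Without overlap between mice, 2 genes were lower (Olfm4 and Hopx), against 38% of all genes, and Sox9 was higher, against 15.1%. The median log2 fold change of the 8 was -0.16. With the replicate block, 3 were called lower (Olfm4, Hopx and Cdca7), as were 3672 of the 13056 genes tested.

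In TAI/IVIg against TAI, 0 of the 8 genes passed the limma test in either direction, as did 0% of all genes lower and 0% higher, and voom on the recovered reads called 0 genes as well. At an unadjusted p under 0.05, Lrig1 and Prom1 were lower, against 11.2% of all genes, and 0 were higher, against 1.64%. Lrig1 and Rgmb were lower without overlap between mice, against 16.1% of all genes, and 0 were higher, against 3.09%. All 8 fitted changes lay below 0, with a median of -0.65. Over all genes 9084 of 13056 lay below 0.

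In TAI/IVIg against control, 4 of the 8 genes were lower (Olfm4, Cdca7, Rgmb and Hopx), against 37.4% of all genes, and 0 were higher, against 9.06%. Olfm4, Prom1, Rgmb and Hopx did not overlap between mice, against 44.3% of all genes, and 0 genes were higher without overlap, against 11.5%. The median of the 8 was -0.66. With the library medians set equal, Olfm4 alone was called, as were 1894 of the 13056 genes tested in the lower direction. This comparison shares its TAI/IVIg mice with the second and its control mice with the first.

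**Figure D4:**
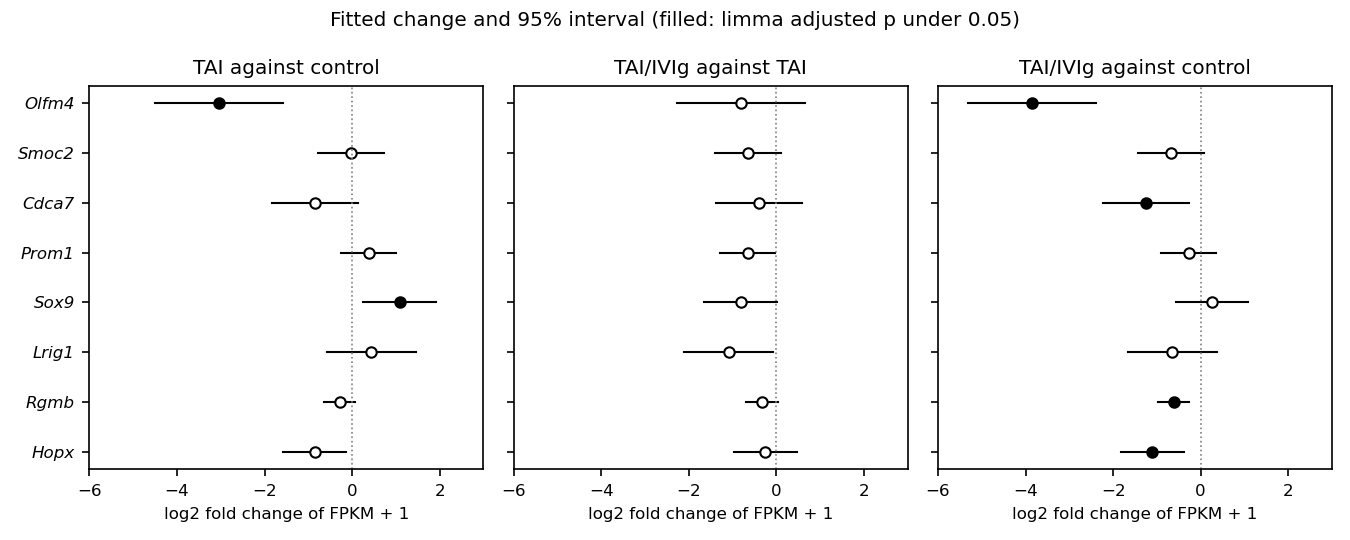
Fitted log2 fold change of FPKM + 1 (points) with its 95% interval (lines) for the 8 genes tested, in the 3 comparisons, filled where the limma adjusted p was under 0.05. Olfm4 and Sox9 are filled in TAI against control, none in TAI/IVIg against TAI, and Olfm4, Cdca7, Rgmb and Hopx in TAI/IVIg against control.

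Other genes around the stem cell were described by lists, whose counts are read beside the shares of all genes tested. These were 26.1% lower and 8.81% higher in TAI against control, and 37.4% lower and 9.06% higher in TAI/IVIg against control. Of 16 R-spondin and Wnt receptor, ligand and ubiquitin ligase genes, 8 were tested, and 1 fell in TAI against control (Fzd5, the Wnt receptor of Paneth cell maturation, log2 fold change -0.97, limma adjusted p = 0.00143). Of 16 Wnt target and feedback genes, 12 were tested, with 0 lower and 2 higher in TAI against control, the feedback inhibitor Axin2 (0.81, limma adjusted p = 0.0108) and the TCF factor Tcf7l2 (0.57, limma adjusted p = 0.0282). In TAI/IVIg against control Tnfrsf19, Ephb2 and Ccnd1, the cyclin D1 gene (-1.41, limma adjusted p = 0.0193), were lower and Sp5, Tcf7l2 and Axin2 (1.02, limma adjusted p = 0.00282) higher, 3 each way. The Wnt targets had a median of 0.29 in TAI against control and of -0.66 in TAI/IVIg against TAI, where 0 of 12 passed and Nkd1, a feedback inhibitor, was at -0.80 (limma adjusted p = 0.353).

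Of 24 further crypt base columnar signature genes, 12 were tested. In TAI against control 2 fell, the aldehyde dehydrogenase Aldh1b1 (-2.80, limma adjusted p = 0.000654) and nucleolin, Ncl (-1.27, limma adjusted p = 0.0255), and 0 rose. The share of all genes called lower there was 26.1%. The TAI/IVIg mice had 4 of the 12 lower than control, against 37.4% of all genes. Among them was Nop58, a component of nucleolar ribonucleoproteins (-1.29, limma adjusted p = 0.00478). The median of the 12 genes was -0.02 in TAI against control and -0.53 in TAI/IVIg against TAI, where 0 passed. Ncl and Nop58 serve ribosome production in all growing cells. The control mean of Aldh1b1 was 304 FPKM, against 27.5 for Olfm4, and the cells behind the Aldh1b1 level were not tested.

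Of 13 reserve and injury-responsive crypt genes, 11 were tested and moved in both directions in TAI against control. The stem cell antigen Ly6a (-3.22, limma adjusted p = 0.000987), the keratin gene Krt19 (-1.91, limma adjusted p = 0.017) and the Polycomb gene Bmi1 (-0.55, limma adjusted p = 0.0249) were among 4 that fell. The matricellular genes Ccn1 (1.69, limma adjusted p = 0.00154) and Ccn2 (1.64, limma adjusted p = 0.00443), known YAP targets, and Anxa1 (1.00, limma adjusted p = 0.0255) were among 4 that rose. Between TAI/IVIg and TAI 0 of 11 passed, and Anxa1 was at -1.26 (limma adjusted p = 0.353) and the ErbB ligand Areg at -1.19 (limma adjusted p = 0.353). Ly6a had a control mean of 1297 FPKM, and the cells behind this level were not tested.

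Of 27 cell cycle and DNA replication genes, 25 were tested and all 25 fell in TAI against control, with a median of -1.80. Birc5 (survivin, -2.71, limma adjusted p = 0.000487) and Mki67 (-2.52, limma adjusted p = 0.000757) had the smallest adjusted p. With the medians set equal 24 of 25 were lower. All 25 were lower in TAI/IVIg than in control as well (median -2.21), and 0 of 25 passed in TAI/IVIg against TAI (median -0.39). Of 12 Paneth cell genes, 0 passed in TAI/IVIg against TAI, where the median was -2.54. All 12 were lower there without overlap between mice, against 16.1% of all genes tested. Mmp7, matrilysin, was at -2.58 (limma adjusted p = 0.353) there and fell by 2.39 (limma adjusted p = 0.00916) against control.

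The pathways in which Lrig1, Rgmb and the crypt fate factors act gave mixed counts. Of 16 ErbB genes, 13 were tested and 6 rose in TAI against control, led by Erbb3 (2.06, limma adjusted p = 0.000131), Erbb2 (0.87, limma adjusted p = 0.00156) and Egfr (1.48, limma adjusted p = 0.00189), with 0 lower and a median of 0.000618. Of 23 BMP pathway genes, 22 had a row and 19 were tested, of which 2 fell in TAI against control (the inhibitors of DNA binding Id3, -0.81, and Id4, -0.70) and 2 rose (the receptor Bmpr2, 0.68, and Smad5, 0.41; limma adjusted p from 0.00273 to 0.0472). Of 13 Notch pathway and fate genes, 9 were tested, and the secretory fate factor Atoh1 fell (-0.69, limma adjusted p = 0.0234) while the Notch ligands Dll1 (0.83, limma adjusted p = 0.0096) and Dll4 (0.85, limma adjusted p = 0.0215) rose. For these 3 lists, 0 genes passed in TAI/IVIg against TAI.

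Markers of other cell types moved as well. In TAI against control 6 of 8 enterocyte markers rose, with a median of 1.499 (Lct, lactase, 4.13, limma adjusted p = 0.000507). The median of the 5 pan-epithelial markers was 0.13, with 1 called lower and 1 higher. In TAI/IVIg against control 2 of these 5 were called lower and 2 higher. Between TAI/IVIg and TAI 0 markers passed. The medians were -1.20 for smooth muscle, -0.997 for fibroblast and stroma, -0.98 for goblet cells and 0.29 for enterocytes. All 6 fibroblast and stroma markers were lower without overlap between mice, against 16.1% of all genes tested. Against control, the TAI/IVIg mice had 4 of 6 fibroblast and stroma markers called lower, led by Col3a1 (-1.26, limma adjusted p = 0.0108), and 1 of 6 with the medians set equal.

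**Figure D5:**
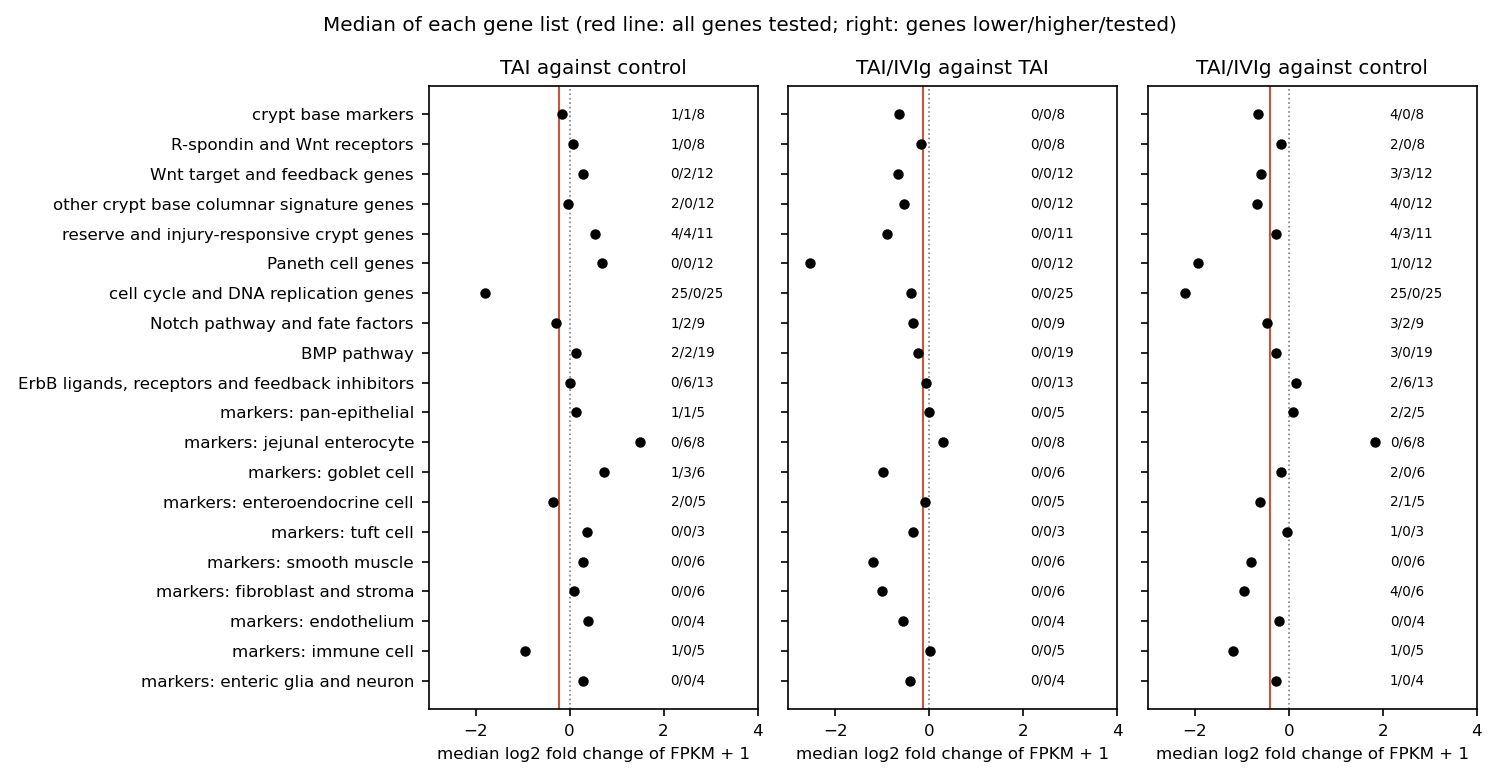
Median log2 fold change of FPKM + 1 for the crypt base markers and each other gene list (points) in the 3 comparisons, with a red line at the median of all genes tested and, at the right of each panel, the genes called lower, called higher and tested. The cell cycle list lies at -1.80 in TAI against control and the Paneth list at -2.54 in TAI/IVIg against TAI, where the counts called are 0 in every list.

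The 10 genes fell into patterns across the 9 mice that are given as a description. On the log2(FPKM + 1) scale Pearson's r over 9 mice was 0.91 between Olfm4 and Hopx, 0.91 between Cdca7 and Hopx, 0.88 between Olfm4 and Cdca7, and 0.86 between Olfm4 and Ascl2. For deviations from the group means these were 0.75, 0.82, 0.82 and 0.95. Smoc2 and Lrig1 gave 0.92, and 0.93 for deviations. Sox9 and Hopx gave 0.09 over the 9 mice and 0.94 for deviations, since Sox9 was higher and Hopx lower in the TAI mice. Lgr5 and Olfm4 gave 0.44 over the 9 mice and 0.73 for deviations, the highest of Lgr5 with any of the other 9 genes for deviations, while over the 9 mice its highest was 0.52, with Ascl2. The points share the libraries, and each group holds 3 of them.

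Mouse 2 was the highest of its group in all 3 groups for 5 of the 8 genes tested, Olfm4, Cdca7, Prom1, Sox9 and Hopx. Among all 13056 genes tested this held for 11.9%, against 2.36% for mouse 1 and 2.63% for mouse 3, and mice 1 and 3 were so for 0 of the 8. This pattern was chosen after its values were seen.

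By the same r, the genes most like Olfm4 over the 9 mice were Med6 (0.990), a Mediator subunit, Gm13509 (0.989) and Pbk (0.983), a mitotic kinase. For Hopx they were B4galnt4 (0.984), Fbxo42 (0.982) and Wdr61 (0.981). Smoc2 was most like Actg2 (0.975), described above, Rab35 (0.972) and Mab21l2 (0.968). Lgr5 was most like Plau (0.943), the urokinase gene, Adgre1 (0.932), which encodes the macrophage antigen F4/80, and Siglece (0.910), a Siglec of myeloid cells. These are the highest of 13055 or 13056 genes over 9 points.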

How the data were processed

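RNA from the jejunum of 9 mice was measured, and the sample labels gave the group of each mouse (3 per group). The table deposited by the authors holds FPKM, not pooled, with a separate column for every mouse, and 0 columns were set aside. The submitters' processing notes name FastQC, Trimmomatic, STAR, featureCounts and DESeq2, without versions, and the builds mm10 and GRCm38. Gene coordinates are those of GENCODE M21 on GRCm38. At its exonic lengths the FPKM values of 30616 of 31685 genes (96.6%) were whole multiples of a read within 0.01 reads. With other lengths for the remaining 1069 genes, 100% of the genes gave whole reads, and these gave the depth, from 16285731 to 18246185 reads (median 17315036). Low genes rest on few reads, which are printed beside Olfm4, Lgr5 and Ascl2. Without strand-specific counting stated, overlapping antisense reads could not be told apart. No pair of libraries held identical values.

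Deposited FPKM values were not rescaled. Limma 3.58.1 (R 4.3.3) was run on log2(FPKM + 1) of the 9 mice together, with group as the only factor and trended empirical Bayes moderation. The 13056 genes that reached 1 FPKM in 3 or more mice were tested, with Benjamini-Hochberg adjustment over all of them, and the threshold was 0.05. Folds of low genes come out too small on this scale. Single values and ratios were compared by two-sided exact permutation tests. In simulated TAI and control reads, the steps called 54 of 105 genes changed by a log2 fold of 1, 93 of 95 changed by 2, and 11 unchanged genes among 13408 tested. The changed genes were drawn from those with many control reads, and every gene was given the same spread. These counts therefore do not carry over to genes with few reads or a wide spread, such as Ascl2 and Olfm4. Neither the labels nor the methods say what a shared replicate number means. The correlation of deviations from the group means was 0.271, 0.241 and 0.308 for the control and TAI mice numbered 1, 2 and 3. The blocked fit is therefore given as an alternative, beside the results of that comparison that it changes. It was fitted over all 9 mice with no known pairing, so it is not a paired test of TAI against control. Between control and TAI/IVIg mice the correlation was -0.136 for number 2 and -0.296 for number 3.

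The 10 genes and the gene lists were chosen with earlier results of these data known. All 10 genes were named. From each other list, genes with the smallest p past the threshold were named, up to 3 in each direction, or up to 2 where none passed. Alternatives were other scalings, filters and pseudocounts, the 6 mice compared alone, no trend, a replicate block, voom on the recovered reads and each mouse left out. Voom with at least 10 reads in at least 3 mice was chosen after seeing the data. It gave the voom values printed for Olfm4, Lgr5, Ascl2 and Cdca7. The replicates of a group were separate mice.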

Additional observations from a re-analysis of the deposited data

How the results depend on the processing

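Across 12 alternative settings and 6 mice left out in turn, Olfm4 stayed lower and past the threshold in TAI against control and in TAI/IVIg against control, and in TAI/IVIg against TAI 0 of the marker genes passed under any of them. The count higher in TAI against control was 1 (Sox9) and became 0 with the libraries centred on pan-epithelial markers, with a pseudocount of 0.1, without a filter, with voom on at least 10 reads in 3 mice, and with a mean FPKM of at least 5, where Sox9 was not tested, and it ran from 0 to 1 with a mouse left out. The count lower was 1 and became 2 with the 6 mice compared alone and 3 with the replicate block, and ran from 1 to 2 with a mouse left out. In TAI/IVIg against control the count lower was 4 and became 1 with the library medians set equal, with quantile normalization, with pan-epithelial centring and with voom and median-ratio library sizes, 2 without a filter, 3 (without Cdca7) with the 6 mice compared alone, with a mean FPKM of at least 5, where Cdca7 was not tested, and with voom and total library sizes or at least 10 reads, and 2 to 4 with a mouse left out. The cause was not tested. Over all genes, voom on the recovered reads with total library sizes called 3307 lower and 1167 higher in TAI against control, near the 3411 and 1150 of the FPKM fit. Directions reversed for genes near 0. Smoc2 in TAI against control was at 0.26 with the medians set equal, 0.26 with quantile normalization, 0.21 with voom and median-ratio sizes, and from -0.17 to 0.0842 with a mouse left out, above 0 without control mouse 2 or TAI mouse 2. Rgmb there was at 0.000503 with the medians set equal and 0.0077 with quantile normalization. Prom1 in TAI/IVIg against control was at 0.22, 0.21 and 0.15 under these 3 scalings, Sox9 there ran from -0.0252 (without TAI/IVIg mouse 2) to 0.58 with a mouse left out, and Hopx in TAI/IVIg against TAI from -0.58 to 0.0265 (without TAI/IVIg mouse 1). Deviations of TAI/IVIg mice and same-numbered mice of the other groups correlated at 0.185 and 0.201 for number 1 and at -0.296 to 0.041 for numbers 2 and 3, so not every pair was above 0.1, and the replicate block changed no call of a marker gene in those comparisons. Where a mouse was left out, the pair remaining was assumed to share its spread with the other groups. Depth limits Ascl2, with 1 to 33 reads a mouse, and Lgr5.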
